A study of Homo sapiens with 36 samples.

Results

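Gene expression was compared between 2 groups of 3 RNA-seq libraries of HCT-116 cells, a human colorectal carcinoma line: FBXW7-/- cells (KO) given the class IIa HDAC degrader #11 and oxaliplatin (OXPT), and wild-type cells (WT) given OXPT. These 6 libraries, titled KO PROTAC11 OXPT and WT siCT OXPT, are 6 of the 36 libraries of the study, and 24 of the 36 could be assigned to 8 groups of 3. Each count below is of genes on chromosomes other than Y. Transfection with endoribonuclease-prepared siRNA (esiRNA) lasted 48 h and OXPT was present at 50 µM for the last 24 h. The #11 libraries also carried the control esiRNA (esiCT), and their entries give #11 at 1 µM in one field and at 10 µM in another. The WT libraries, with and without OXPT, are titled siCT, but their treatment entry names the esiRNA against HDAC4 (esiHDAC4), so which esiRNA the WT cells received is unsettled and its effect cannot be told apart from that of the genotype. The KO cells came from a single commercial line that had been checked by Sanger sequencing, so genotype and line also coincide. The comparison therefore joins FBXW7 loss, #11 and possibly an esiRNA. For reference, KO cells with esiCT and OXPT (KO esiCT), KO cells with esiHDAC4 and OXPT, and the untreated KO #11 and WT libraries were fitted in the same model. No entry states that the 3 replicates were separate cultures, so p-values measure the spread between these libraries, which may be technical.

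FBXW7 is the subunit with which an SCF ubiquitin ligase recognises phosphorylated substrates such as MYC, JUN and NOTCH1, and it is often mutated in colorectal cancer. Class IIa HDACs are nearly inactive as deacetylases and act as scaffolds that bring corepressor complexes to transcription factors, MEF2 above all. Compound #11 is a PROTAC, a molecule that ties the HDACs to the VHL ubiquitin ligase and so marks them for the proteasome. OXPT forms platinum crosslinks in DNA and activates p53. The question set by the design was how far KO cells given the class IIa HDAC degrader resemble WT cells during exposure to OXPT.

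Counts on genes were 12436981 to 13946679 per KO #11 library and 15180320 to 19435104 per WT library. Of the 6 libraries, 1 WT library stood apart. In WT OXPT replicate 3, 5.84% of the counts fell on mitochondrial genes, against 14.3% and 11.4% in replicates 1 and 2, and MDM2, a p53 target, stood at 54.5 CPM, counts scaled to library size with TMM factors, against 366 and 353. Over all genes tested, its root mean square log2 difference from the other 2 WT libraries was 0.985 and 1.03, whereas those 2 differed by 0.310 and the KO #11 libraries differed among themselves by 0.272 to 0.513. Results were therefore also computed without it. Libraries of the reference groups stood apart too. Untreated WT replicate 3 had 5.65% mitochondrial counts, against 11.0% and 9.56% in replicates 1 and 2, and differed from them by 0.872 and 1.255. KO esiCT OXPT replicate 3 had 22.3% unmapped reads, against 9.46% and 9.75%, and differed from its group by 1.073 and 1.045. KO esiHDAC4 OXPT replicate 3 had 13.4% unmapped reads, against 10.5% and 9.7%. It had 6.37% mitochondrial counts, against 11.2% and 9.9%, and differed from its group by 0.955 and 0.758. FBXW7 mRNA did not separate the genotypes, at 38.5, 32.8 and 28.3 CPM in KO #11 and 42.3, 33.9 and 13.4 CPM in WT (log2 fold change 0.15, adjusted p = 0.91). Counts summed over a whole gene do not check a deletion of part of it. HDAC4 mRNA bears on the unsettled esiRNA of the WT libraries. With OXPT it was at 8.49, 8.44 and 10.0 CPM in WT, 6.28, 5.71 and 7.5 CPM in KO esiCT and 4.13, 3.33 and 4.19 CPM in KO esiHDAC4. Untreated libraries stood at 18.8, 25.6 and 21.6 CPM in WT, 18.4, 14 and 24.9 CPM in KO esiCT and 8.94, 8.79 and 14.9 CPM in KO esiHDAC4. All WT libraries thus lay above the KO esiHDAC4 libraries of the same treatment but the genotypes differ between these groups, so these values do not settle which esiRNA the WT libraries had. The colon epithelial markers EPCAM, KRT8, KRT18, KRT19, CDH1 and CLDN7 were read in every library, with a summed level of 9357 to 12560 CPM in KO #11 and 11730 to 17590 CPM in WT, but VIL1 had at most 6 counts. PTPRC of leukocytes, PECAM1 of endothelium and S100B of glia had at most 5 counts each. With the fibroblast and smooth muscle genes COL1A1 and ACTA2, which were read in every library, these markers of other cells summed to 48.5 to 67.0 CPM in KO #11 and 50.1 to 55.8 CPM in WT.

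Of 12353 genes tested, 140 (1.13%) were called different between KO #11 and WT under OXPT, at a Benjamini-Hochberg adjusted p under 0.05 in edgeR's quasi-likelihood test and a fold change over 1.5. They were 78 higher (0.631%) and 62 lower (0.502%) in KO #11. The median fold change was 2.77 among the genes called higher and 3.06 among those called lower, with 13 and 17 of them beyond 4-fold. The median log2 fold change over all genes was 0.01. At an unadjusted p under 0.05 there were 1555 genes, 950 higher (7.69%) and 605 lower (4.9%). The 3 libraries of one group lay wholly above the 3 of the other for 1504 genes in the higher direction (12.2%) and 1012 in the lower (8.19%), and all 140 called genes were among these. The genes called higher were 77 protein-coding genes and 1 lncRNA. The genes called lower were 53 protein-coding genes, 8 lncRNAs and 1 pseudogene. The 8 groups shared one estimate of the spread. A fit of the 6 libraries alone called 33 genes, 9 higher and 24 lower. In the fit of all groups without WT OXPT replicate 2 the count was 23, 5 higher and 18 lower, so that 21.7% were higher against 55.7% with all libraries. Without KO #11 replicates 1, 2 and 3 in turn it was 29, 28 and 73, and without WT replicate 1 it was 112. Without WT OXPT replicate 3 the count was 80, 41 higher and 39 lower. In that fit all 78 genes called higher and the 60 of the 62 called lower that were still above the count minimum kept their sign, and 34 and 31 of them passed the test.

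**Figure D1:**
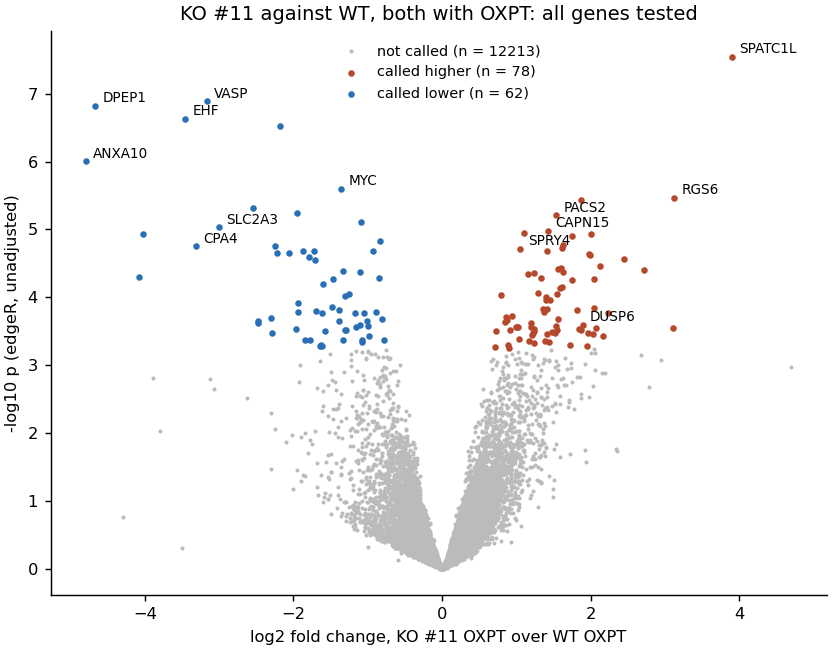
Log2 fold change of KO #11 OXPT over WT OXPT (x axis) against the −log10 of edgeR's unadjusted p (y axis) for the 12353 genes tested. The 78 genes called higher (red) and 62 called lower (blue) lie at the upper edges, with SPATC1L at the right and ANXA10 and DPEP1 at the left.

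Several of the strongest losses in KO #11 were of genes that also stood low in KO cells without the degrader. VASP (chr19:45506579-45526989 on hg38), which promotes actin filament elongation at the leading edge and at adhesions, was read at 27.2, 27.7 and 26.5 CPM in KO #11 and at 154, 234 and 340.1 CPM in WT. The KO #11 values sat within 2 CPM of each other and far below the lowest WT library. The difference was 8.95-fold (log2 fold change −3.16, SE 0.40, adjusted p = 0.000623). KO esiCT libraries stood at 25.3, 31.9 and 30.5 CPM under OXPT, −3.06 on the log2 scale against WT (adjusted p = 0.00127), and −0.11 separated KO #11 from KO esiCT (adjusted p = 0.947). These comparisons share libraries with each other and with the main one. Without OXPT, in libraries that share nothing with it, VASP differed between KO #11 and WT by −3.41 (adjusted p = 0.000193). With only the compared groups fitted, neither KO esiCT against WT nor the untreated comparison called VASP (adjusted p = 0.201 and 0.172).

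EHF, an ETS transcription factor of epithelial cells, was read at 2.12, 3.14 and 2.96 CPM in KO #11 against 40.6, 39.9 and 9.72 CPM in WT. WT replicate 3 was the lowest of the WT libraries and still lay above all KO #11 libraries. The log2 fold change was −3.45 (SE 0.46, adjusted p = 0.000733). It was −4.12 in KO esiCT against WT under OXPT (adjusted p = 0.000351) and −3.55 in untreated KO #11 against WT (adjusted p = 0.000344). With only the compared groups fitted, neither of these 2 comparisons called EHF (adjusted p = 0.456 and 0.0897).

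A few genes were nearly silent in KO #11. ANXA10, a calcium-dependent membrane-binding annexin, had 2, 2 and 4 counts in the KO #11 libraries and 55, 113 and 102 in WT. DPEP1, a membrane dipeptidase, had 11, 4 and 9 counts against 100, 340 and 274. APOBEC3G, a cytidine deaminase of antiviral defence, had 1, 1 and 6 counts against 82, 35 and 52. No KO #11 library came near a WT library for any of them. Their fitted log2 fold changes, which at such counts depend on the prior count, were −4.79, −4.67 and −4.03 (adjusted p = 0.00205, 0.000623 and 0.00800). All 3 genes were called lower also in KO esiCT OXPT against WT OXPT, which shares the WT libraries, and in untreated KO #11 against untreated WT, which shares none. The APOBEC3G call in the main comparison was lost without KO #11 replicate 1 or 2, with adjusted p up to 0.0602. In the KO esiCT and untreated comparisons none of the 3 genes was called with only the compared groups fitted (adjusted p from 0.0782 to 0.598).

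The opposite pattern was seen for SPATC1L, a little studied gene named for its relation to spermatogenesis and centrioles. It had 68, 70 and 49 counts in KO #11 and 7, 4 and 4 in WT, which is 14.9-fold in the fit, a value that depends on the prior count (adjusted p = 0.000356). It was higher by 3.03 on the log2 scale in KO esiCT under OXPT (adjusted p = 0.00295) and by 3.19 in untreated KO #11 (adjusted p = 0.000709). With only the compared groups fitted, neither difference was called (adjusted p = 0.74 and 0.172). RGS6, which shortens signalling of G protein alpha subunits, had 56, 58 and 18 counts in KO #11 and 7, 6 and 5 in WT (log2 fold change 3.12, adjusted p = 0.00504). KO #11 replicate 3 was the lowest of its group but remained above WT. Its log2 fold change was 1.05 in KO esiCT against WT (adjusted p = 0.956) and 1.83 without OXPT (adjusted p = 0.0353). BEX4, a small protein linked to microtubules, and SERPINA5, the protein C inhibitor, rose with log2 fold changes of 2.45 and 2.12 (adjusted p = 0.00955 and 0.0116). BEX4 ranged over 4.86 to 9.61 CPM in KO #11 and 0.804 to 1.61 CPM in WT, and SERPINA5 over 10.5 to 16.4 and 2.08 to 4.16 CPM, with no overlap. Their calls were lost without WT replicate 2, and that of SERPINA5 also without WT replicate 3, with adjusted p up to 0.0882 and 0.0948.

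**Figure D2:**
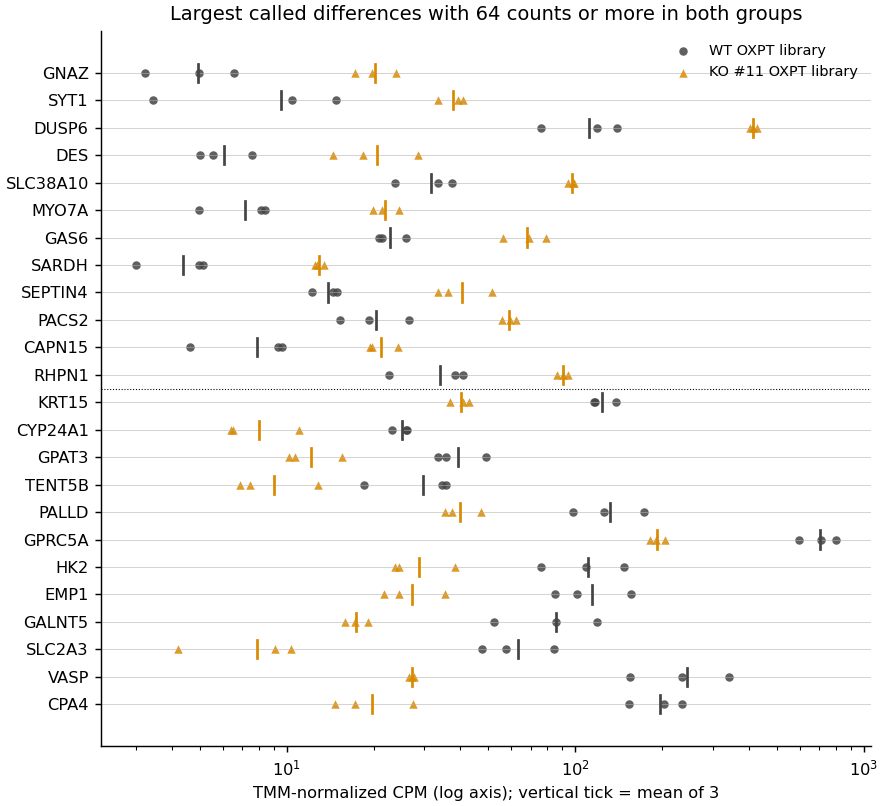
TMM-normalized CPM on a log axis (x axis) in the 3 KO #11 OXPT libraries (triangles) and the 3 WT OXPT libraries (circles) for the 12 genes with the largest called difference in each direction (y axis, higher above the dotted line) among protein-coding genes with a mean of 64 counts or more in both groups. Genes were also chosen for groups that do not overlap. Ticks mark means, and the widest gaps below the line are those of CPA4 and VASP.

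Among genes with at least 64 counts in both groups the largest loss was of CPA4 (chr7:130293134-130324180), a secreted carboxypeptidase. It was read at 17.3, 14.7 and 27.3 CPM in KO #11 and 153, 202 and 234 CPM in WT, a difference of 9.94-fold (log2 fold change −3.31, SE 0.59, adjusted p = 0.00873). KO esiCT libraries under OXPT stood at 98.5, 187 and 96.2 CPM, all above the highest KO #11 library, although −2.69 on the log2 scale did not pass the test there (adjusted p = 0.0788). CPA4 rose with OXPT in both lines, by 2.42 in WT (adjusted p = 0.00856) and by 2.02 in KO #11 (adjusted p = 0.0323), from a level that was already lower in untreated KO #11 (−2.91, adjusted p = 0.0195). EMP1, a tetraspan membrane protein of epithelial cells, was at 21.8, 24.5 and 35.5 CPM against 85.2, 155 and 102 CPM in WT (log2 fold change −2.06, adjusted p = 0.00873). It differed by −2.12 without OXPT (adjusted p = 0.0077), and KO esiCT stood at 57, 88.5 and 56.7 CPM under OXPT, above all KO #11 libraries. The log2 fold change of EMP1 in KO #11 against KO esiCT, −1.305, did not pass the test (adjusted p = 0.181). TENT5B, which adds adenosines to mRNA tails, was at 6.9, 7.48 and 12.8 CPM against 18.5, 34.6 and 35.7 CPM (log2 fold change −1.71, adjusted p = 0.00955). It rose with OXPT in WT by 1.56 (adjusted p = 0.00268), and KO #11 gave 0.22 (adjusted p = 0.721). The difference between these 2 responses, −1.34, did not pass the test (adjusted p = 0.937). Each of these calls was lost in a fit without KO #11 replicate 1 or 2, and those of EMP1 and TENT5B also without WT replicate 2, with adjusted p up to 0.0664, 0.0755 and 0.0876.

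The promoters of these 3 genes are shown because they hold an AP-1 letter match. Of the AP-1 and immediate early list, MYC and FOSL2 were called lower. The FOSL2 call was lost in 4 of the 6 fits without 1 of the compared libraries. Whether AP-1 acts on these 3 genes was not tested. They are the 250 bases before the RefSeq start on GRCh38.p14, read 5′ to 3′ on the gene's strand, at chr7:130292911-130293160 (plus strand) for CPA4, chr12:13196476-13196725 (plus) for EMP1 and chr1:27012851-27013100 (minus) for TENT5B. Capitals mark matches to TGANTCA, searched on both strands.
CPA4: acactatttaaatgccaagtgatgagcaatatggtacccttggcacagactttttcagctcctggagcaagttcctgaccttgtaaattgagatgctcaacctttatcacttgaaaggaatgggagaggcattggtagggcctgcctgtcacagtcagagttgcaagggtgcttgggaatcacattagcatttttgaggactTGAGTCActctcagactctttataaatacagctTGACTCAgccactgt
EMP1: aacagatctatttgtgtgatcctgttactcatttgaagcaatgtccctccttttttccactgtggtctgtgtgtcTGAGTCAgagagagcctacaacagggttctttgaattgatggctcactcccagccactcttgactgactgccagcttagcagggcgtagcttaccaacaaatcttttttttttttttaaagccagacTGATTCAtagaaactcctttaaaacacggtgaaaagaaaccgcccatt
TENT5B: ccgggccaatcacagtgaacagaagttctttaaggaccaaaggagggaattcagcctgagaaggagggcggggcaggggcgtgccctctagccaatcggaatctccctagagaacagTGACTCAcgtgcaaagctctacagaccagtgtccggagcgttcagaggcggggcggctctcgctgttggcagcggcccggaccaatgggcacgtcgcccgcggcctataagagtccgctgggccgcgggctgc
CPA4 and EMP1 hold 2 matches each and TENT5B holds 1. The motif stood in 5 of the 40 promoters found for genes called lower (12.5%), the other 2 being those of F3 and C6orf141, which were picked out after their values were seen. It stood in 4 of 57 for genes called higher (7.02%), in 347 of 9474 for all genes tested (3.66%) and in 6.60% of all 27305 promoters in the table. The cAMP response element TGACGTCA was found in 0 of 40 and 1 of 57 (3.04% of genes tested), the E-box CACGTG in 4 and 6 (9.06%), the hypoxia core ACGTG, which lies within that E-box, in 11 and 12 (23.9%), and CCAAT in 12 and 21 (35.2%). A match is a description of the letters and not a bound site.

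Other genes with large losses in KO #11 included a glucose transporter, a hexokinase and a glycosyltransferase. SLC2A3, the glucose transporter GLUT3, was at 10.3, 4.19 and 9.13 CPM in KO #11 and 84.4, 57.7 and 47.7 CPM in WT (8.02-fold, adjusted p = 0.00800), and KO esiCT libraries stood at 7.85, 5.06 and 18 CPM, also below every WT library. HK2, a hexokinase of the first glycolytic step, was at 38.4, 24.5 and 23.6 CPM against 76, 109 and 147 CPM (3.83-fold, adjusted p = 0.0239). GALNT5 starts O-linked glycosylation and was at 15.9, 19.1 and 17.3 CPM against 85.7, 119 and 52.4 CPM (4.91-fold, adjusted p = 0.0308). The KO #11 and WT libraries did not overlap for any of the 3 genes. GPRC5A, an orphan receptor induced by retinoic acid, fell 3.65-fold (adjusted p = 0.00873), PALLD, an actin-bundling protein, 3.31-fold (adjusted p = 0.00873), GPAT3 of glycerolipid synthesis 3.24-fold (adjusted p = 0.0276), CYP24A1, which inactivates vitamin D, 3.13-fold (adjusted p = 0.0465) and the keratin KRT15 3.08-fold (adjusted p = 0.0463). Their KO #11 libraries ranged over 182 to 204, 35.5 to 46.9, 10.2 to 15.5, 6.43 to 11.1 and 36.8 to 42.9 CPM, and their WT libraries over 593 to 802, 98.5 to 172, 33.5 to 49, 23.2 to 26.1 and 116 to 138 CPM. The HK2, GALNT5, GPRC5A, PALLD and GPAT3 calls were lost without KO #11 replicate 1 or 2 or WT replicate 2, those of HK2 and GALNT5 also without KO #11 replicate 3, that of HK2 without WT replicate 3 and that of GALNT5 without WT replicate 1, with adjusted p up to 0.122, 0.163, 0.0602, 0.0672 and 0.147. Those of CYP24A1 and KRT15 were lost in all 6 fits that left out 1 of these libraries, with adjusted p up to 0.207 and 0.163. SLC2A3 lost its call only without KO #11 replicate 2 (adjusted p = 0.0552). PALLD overlaps genes on the other strand, whose reads could not be kept apart in these counts.

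Among the genes higher in KO #11, the ERK feedback phosphatase DUSP6 was the most abundant of the 12 with the largest rise. It was read at 427, 412 and 403 CPM in KO #11 and at 119, 76 and 139.5 CPM in WT, 3.71-fold higher (log2 fold change 1.89, SE 0.43, adjusted p = 0.0345). The 3 KO #11 libraries lay close together and above every WT library. Untreated KO #11 also exceeded untreated WT, by 2.03 (adjusted p = 0.0235), and KO esiCT gave 0.29 against WT under OXPT (adjusted p = 0.996). DUSP6 was not called in KO #11 against KO esiCT under OXPT. SPRY4, another ERK-induced inhibitor of receptor tyrosine kinase signalling, was at 71.9, 69.2 and 85 CPM against 38.1, 33 and 37.7 CPM (2.08-fold, adjusted p = 0.00873). It differed by 0.96 without OXPT (adjusted p = 0.0141). Against KO esiCT under OXPT, KO #11 gave 0.91 for SPRY4, which did not pass the test (adjusted p = 0.0711). The DUSP6 call was lost in each of the 6 fits without 1 library (adjusted p up to 0.184) and that of SPRY4 without WT replicate 2 (adjusted p = 0.0672). GNAZ, the alpha subunit of the inhibitory G protein Gz, was at 19.7, 17.3 and 23.9 CPM against 4.97, 3.22 and 6.58 CPM (4.12-fold, adjusted p = 0.0134), and SYT1, a calcium sensor of vesicle fusion, at 40.7, 39.2 and 33.4 CPM against 14.8, 10.4 and 3.44 CPM (3.95-fold, adjusted p = 0.00874). GNAZ and SYT1 did not overlap between the groups, and WT replicate 3 held the lowest SYT1 value.

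DES, the muscle intermediate filament desmin, rose 3.38-fold (adjusted p = 0.00803), MYO7A, an unconventional myosin, 3.06-fold (adjusted p = 0.00873), SARDH, the mitochondrial sarcosine dehydrogenase, 2.94-fold (adjusted p = 0.0313) and SEPTIN4, a filament-forming GTPase, 2.91-fold (adjusted p = 0.0345). All 4 had non-overlapping groups, from 14.5 to 28.5 against 5.03 to 7.6 CPM for DES to 33.4 to 51.4 against 12.3 to 14.9 CPM for SEPTIN4. DES was called higher without OXPT too (1.67, adjusted p = 0.0118). The calls of GNAZ, SYT1, DES and MYO7A were lost without WT replicate 2, those of GNAZ and MYO7A also without KO #11 replicate 1 and that of GNAZ also without KO #11 replicate 3. Those of SARDH and SEPTIN4 were lost in all 6 fits. In these 6 fits the highest adjusted p ran from 0.0612 for SYT1 to 0.183 for SARDH.

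Other genes called higher in KO #11 were genes that OXPT lowered in WT. CAPN15 (chr16:527712-554636), a calpain protease, was read at 24.4, 19.4 and 19.7 CPM in KO #11 and 9.3, 4.62 and 9.65 CPM in WT under OXPT (2.69-fold, SE 0.25 on the log2 scale, adjusted p = 0.00800). Without OXPT the order was the other way in these libraries, 30.0, 26.6 and 28.5 CPM in KO #11 and 51.2, 49.9 and 41.4 CPM in WT, a difference that did not pass the test (−0.74, adjusted p = 0.143). With OXPT, CAPN15 was lower in WT, with a log2 change of −2.59 (adjusted p = 2.65e-06) and of −0.42 in KO #11 (adjusted p = 0.304). The difference between these responses, the interaction, was 2.17 (SE 0.34, adjusted p = 0.0391), and CAPN15 was the 1 gene of 12353 (0.0081%) to pass that test, against 449 at an unadjusted p under 0.05. The interaction kept its sign in every fit without 1 of the 24 libraries, at 1.91 to 2.33, but passed the test in 7 of those 24 fits. It missed it without any 1 of the KO #11 libraries, with or without OXPT, and the adjusted p reached 0.226 without untreated KO #11 replicate 2. KO esiCT libraries under OXPT stood at 9.03, 13.4 and 11.7 CPM, all below KO #11, a difference of 0.90 that did not pass the test (adjusted p = 0.157).

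PACS2, which sorts membrane proteins and holds ER and mitochondria in contact, was at 59.5, 62.1 and 55.8 CPM in KO #11 and 19.4, 15.3 and 26.5 CPM in WT (2.9-fold, adjusted p = 0.00635). KO esiCT under OXPT stood at 20.7, 17.9 and 31.8 CPM, 2.53-fold below KO #11 (adjusted p = 0.0383), and untreated KO #11 and WT differed by 0.19 (adjusted p = 0.797). SLC38A10, an amino acid transporter, was at 98, 99.3 and 94.3 CPM against 33.5, 23.7 and 37.3 CPM (3.08-fold, adjusted p = 0.00873), with untreated libraries at 166 to 172 and 109 to 195 CPM. For both genes KO #11 under OXPT lay below its untreated libraries and above all WT OXPT libraries. GAS6, the ligand of the receptor tyrosine kinase AXL, was at 79.1, 68.9 and 56.3 CPM against 21.4, 20.8 and 26 CPM (3.00-fold, adjusted p = 0.0165). COL18A1, a basement membrane collagen, was at 48, 39.8 and 39.4 CPM against 18.6, 11.7 and 17.4 CPM (2.66-fold, adjusted p = 0.00873) and stood 2.49-fold over KO esiCT (adjusted p = 0.0417). The calls of PACS2 and COL18A1 over KO esiCT held in 9 and 8 of the 24 fits without 1 library, with adjusted p up to 0.261 without KO esiCT OXPT replicate 2 and 0.272 without KO #11 OXPT replicate 1, and neither held with the filter in every group (0.087 for both) or with the compared groups alone (0.44 and 0.391). The log2 change with OXPT in WT was −1.93 for PACS2, −2.35 for SLC38A10, −2.14 for GAS6 and −2.60 for COL18A1, all 4 called, and in KO #11 it was −0.59, −0.80, −0.08 and −1.57, of which only COL18A1 was called. The interaction was 1.34 for PACS2, 1.55 for SLC38A10, 2.06 for GAS6 and 1.04 for COL18A1, and none passed the test. Leaving out WT replicate 2 ended the calls of PACS2, SLC38A10, GAS6 and COL18A1, leaving out KO #11 replicate 1 also those of GAS6 and COL18A1, leaving out KO #11 replicate 2 or WT replicate 1 also that of GAS6, and the highest adjusted p were 0.0528, 0.0694, 0.113 and 0.0779. PACS2 overlaps BRF1, GAS6 overlaps GAS6-AS1 and COL18A1 overlaps SLC19A1 on the other strand. SLC19A1 was itself called higher, so reads of this pair cannot be told apart.

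Genes that OXPT lowers were then looked at as a whole, taking the OXPT response from the KO esiHDAC4 libraries, which enter neither side of the comparison. This grouping was chosen after the data were seen. KO esiHDAC4 OXPT replicate 3 stood apart from its own group, by root mean square log2 differences of 0.955 and 0.758. It differed by 0.627 from WT OXPT replicate 3 and by 0.503 to 0.620 from the KO #11 OXPT libraries. The effect of that library on the grouping was not tested. OXPT lowered 683 of the 12353 genes in KO esiHDAC4 (5.53%) by the same rule, and 44 of the 78 genes called higher in KO #11 against WT were among them (56.4%). The 683 genes had a median log2 fold change of 0.38 between KO #11 and WT under OXPT, with 81.7% above 0, beside 0.01 and 50.8% for the 10875 genes that OXPT did not change there. In untreated libraries their median was 0.03 (52.6% above 0), in KO esiCT against WT under OXPT 0.03 and in KO #11 against KO esiCT under OXPT 0.37. OXPT raised 795 genes in KO esiHDAC4, which had a median of −0.18 in KO #11 against WT, with 33.3% above 0. These were 6.44% of the genes tested and included 20 of the 62 genes called lower (32.3%). Without WT OXPT replicate 3 the medians were 0.39 for the lowered genes (79.1% above 0) and −0.06 for the raised genes (44.6% above 0). Of the lowered genes 29 were then called in either direction, and of the raised genes 14. The lowered genes were long, with a median span of 103 kb against 30.1 kb for genes that did not change.

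Among the 78 genes called higher, OXPT gave a median log2 change of −1.04 in WT and −0.26 in KO #11, and it lowered 46 of them in WT and 12 in KO #11 by the calling rule, and raised 2 and 6. Over all genes it lowered 5.6% and raised 5.1% in WT, and it changed 9.51% in KO #11, 3.57% lower and 5.94% higher. Both responses share libraries with the comparison that chose the genes, so these values describe the set and test nothing. The genes called higher had a median span of 68.6 kb and a median GC content of 55.0%, against 30.6 kb and 48.4% for genes not called. The genes called lower had 26.0 kb and 48.1%. Of the 78, 34 fell among the 2470 longest genes and 31 among the 2470 richest in GC, against 13 and 7 of the 62 called lower.

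Untreated libraries asked whether the differences were already present without OXPT. KO #11 differed from WT in 120 genes untreated (0.971%), 48 higher and 72 lower. Across all 12353 genes the log2 fold changes with and without OXPT, which share no library, had a Pearson correlation of 0.659 and a Spearman correlation of 0.583, given as a description since genes are not independent replicates. The 2 had the same sign for 70.5% of all genes. Of the 62 genes called lower with OXPT, 58 (93.5%) had the same sign without it and 26 were called lower there (41.9% of the 62 and 36.1% of the 72), including VASP, EHF, ANXA10, DPEP1, APOBEC3G, CPA4, EMP1, HK2, GPRC5A, PALLD, CYP24A1 and TPM4. Of the 78 called higher, 70 (89.7%) had the same sign and 11 were called (14.1% of the 78 and 22.9% of the 48), including SPATC1L, SERPINA5, RGS6, BEX4, DUSP6, DES and SPRY4. Of these named genes VASP, EHF, ANXA10, DPEP1, APOBEC3G, PALLD, SPATC1L and SERPINA5 were called without OXPT in every fit without 1 library in which they were tested, and each of the others lost the call in at least 1. In a fit of the untreated KO #11 and WT libraries alone none of these named genes was called, with adjusted p from 0.0782 for ANXA10 to 0.42 for TPM4. No gene was called in opposite directions with and without OXPT. The median log2 fold change without OXPT was −1.12 for the genes called lower and 0.73 for those called higher, against −1.61 and 1.47 with OXPT, on which they were chosen. KO esiCT against WT under OXPT gave 16 calls (0.13%), 1 higher and 15 lower, and 666 genes at an unadjusted p under 0.05. KO #11 against KO esiCT under OXPT gave 15 (0.121%), 13 higher and 2 lower (0.0162%), and 1264 genes at an unadjusted p under 0.05. KO esiHDAC4 against WT under OXPT gave 28 (0.227%), 1 higher and 27 lower, and 716 genes at an unadjusted p under 0.05. All 3 share libraries with the main comparison. In KO esiCT against WT and in KO #11 against KO esiCT, the genes called higher had medians of 0.39 and 1.03, and the genes called lower had −0.70 and −0.61.

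Other genes were ranked by the interaction. PRDM16, a zinc finger transcriptional regulator, had an interaction of 2.64 (adjusted p = 0.295) and was at 3.06, 1.87 and 1.52 CPM in KO #11 and 0.865, 0.402 and 0.439 CPM in WT under OXPT (adjusted p = 0.0345), but untreated WT stood at 7.62, 14.7 and 14 CPM. Its log2 change with OXPT was −4.36 in WT (adjusted p = 2.65e-06) and −1.72 in KO #11 (adjusted p = 0.00605). Its call in the comparison was lost in 4 of the 6 fits without 1 library, those without KO #11 replicate 1 or 2 or WT replicate 2 or 3 (adjusted p up to 0.207). In the other direction AMOTL2, a junction protein that restrains the coactivator YAP, gave −2.20 (adjusted p = 0.082), and CCN2, a secreted matricellular protein, −2.97 (adjusted p = 0.295). OXPT raised AMOTL2 by 2.11 in WT (adjusted p = 5.22e-05), and the value in KO #11 was −0.09 (adjusted p = 0.874), where untreated libraries already stood at 85.1, 82.3 and 44.8 CPM against 21.2, 23.9 and 19.9 CPM in untreated WT. The lncRNA ENSG00000289154, which lies within CBX5 on the same strand and may share its reads, was at 1.88, 0.972 and 1.12 CPM in KO #11 and 3.78, 3.48 and 6.58 CPM in WT (adjusted p = 0.00918, and 0.0843 without KO #11 replicate 2), with an interaction of −2.25 (adjusted p = 0.295).

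Gene lists were read by their counts of calls, against 0.631% higher and 0.502% lower over all genes. In the AP-1 and immediate early list, 2 of 18 genes were called lower and 0 higher, with a median log2 fold change of −0.66. MYC, the growth regulator that FBXW7 targets for degradation as a protein, had mRNA at 134, 139 and 113 CPM in KO #11 and 279, 321 and 387 CPM in WT (2.56-fold, log2 fold change −1.36, SE 0.21, adjusted p = 0.00441). The groups did not overlap, and KO esiCT also stood below WT, with a log2 fold change of −1.26 (adjusted p = 0.00783). That call was lost without KO esiCT OXPT replicate 3 or without WT OXPT replicate 3, at up to 0.0807. With only the KO esiCT and WT OXPT groups fitted, its adjusted p was 0.74. FOSL2, an AP-1 subunit, was at 36.8, 40.6 and 50.9 CPM against 89.1, 122 and 177 CPM (3.03-fold, adjusted p = 0.0151). WT replicate 3 held the highest values of this list as a whole, with a summed 3814 CPM against 1671 and 2009 in the other WT libraries and 1388 to 1755 in KO #11. Without that library the list median was −0.15 and FOSL2 was no longer called, as without KO #11 replicate 1 or 2 or WT replicate 2 (adjusted p up to 0.117), whereas MYC was called in each of the 6 fits. MYC was also the 1 gene called among 19 whose proteins FBXW7 degrades (median −0.24, and −0.40 without WT replicate 3).

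In the actin and adhesion list 3 of 22 genes were called lower, VASP, the tropomyosin TPM4 and the cytoplasmic actin ACTG1, and the median was −0.44. TPM4 was at 296, 289 and 341 CPM against 509, 611 and 532 CPM (1.79-fold, adjusted p = 0.00873). ACTG1 was at 3801, 3671 and 4111 CPM against 5749, 6430 and 7690 CPM (1.72-fold, adjusted p = 0.0418), and it shares sequence with ACTB and processed copies. All KO #11 libraries were below all WT libraries for both genes. In the S100 and annexin list 2 of 17 were lower, ANXA10 and S100A10, the light chain of the annexin A2 complex, which was at 186, 204 and 189 CPM against 446, 554 and 377 CPM (2.38-fold, adjusted p = 0.0193). The list median was −0.38. In glycolysis 2 of 21 were lower, SLC2A3 and HK2, with a median of −0.45. The TPM4, ACTG1 and S100A10 calls were lost without KO #11 replicate 1 or 2 or WT replicate 2, those of ACTG1 and S100A10 also without KO #11 replicate 3 and that of ACTG1 also without WT replicate 3, with adjusted p up to 0.0616, 0.179 and 0.13. Without WT replicate 3 the medians were −0.325 for actin and adhesion, −0.295 for S100 and annexins and −0.275 for glycolysis.

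In the ERK feedback and EGFR ligand list 2 of 20 genes were called higher, DUSP6 and SPRY4, and the median was 0.10. AREG, an EGFR ligand, stood at 518 to 676 CPM in KO #11 and 679 to 1293 CPM in WT (adjusted p = 0.794), and ERRFI1, an EGFR inhibitor, at 164 to 313 and 325 to 523 CPM (log2 fold change −1.06, adjusted p = 0.0949). COL18A1 was the 1 gene called of 20 in the basement membrane list (median −0.08, and −0.04 without WT replicate 3). None of the 21 HIF target genes tested was called, though their median was −0.61 (−0.425 without WT replicate 3) and 5 were lower at an unadjusted p under 0.05. ANGPTL4, a HIF target that inhibits lipoprotein lipase, was at 46.7, 28.3 and 32.4 CPM against 186, 241 and 505 CPM and missed the threshold (log2 fold change −3.12, SE 0.86, adjusted p = 0.0789). Without OXPT it was called lower (−3.90, adjusted p = 0.0387). That call held in 15 of the 24 fits without 1 library (adjusted p up to 0.173) and was lost with the compared groups alone (0.179). Among 13 Wnt targets none was called, with a median of 0.26 (0.51 without WT replicate 3), and 5 were higher at an unadjusted p under 0.05. These included EPHB2, a receptor of crypt cells, at 44.7, 46 and 39.1 CPM against 16.2, 16.4 and 22.2 CPM (1.24, adjusted p = 0.0767), and NOTUM, a secreted Wnt inactivator, at 20.4, 17.8 and 27.7 CPM against 11.6, 7.17 and 11.6 CPM (1.11, adjusted p = 0.102).

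The direct targets of the treatment were read next. HDAC4 mRNA was at 18.5, 16.9 and 14.5 CPM in KO #11 and 8.49, 8.44 and 10.0 CPM in WT, with no overlap, and the log2 fold change of 0.89 (SE 0.24) missed the threshold (adjusted p = 0.0767). KO esiCT stood at 6.28, 5.71 and 7.5 CPM, and that difference of 1.36 passed narrowly (adjusted p = 0.0383). It was called in 9 of the 24 fits without 1 library, with adjusted p up to 0.25 without KO #11 OXPT replicate 1, and it was not called with the compared groups alone (adjusted p = 0.44). The mRNA does not measure what #11 does to the protein. HDAC5 and HDAC7 gave −0.14 and 0.33 (adjusted p = 0.858 and 0.641), and VHL, the ligase subunit recruited by #11, −0.02 (adjusted p = 0.983). HDAC9 had 3, 12 and 6 counts in KO #11 and 12, 3 and 3 in WT, below the count minimum. Of 12 MEF2 factors and MEF2 or class IIa HDAC target genes, none was called and the median was −0.66 (−0.45 without WT replicate 3), with 4 lower at an unadjusted p under 0.05. RHOB, a small GTPase, and NR4A1, an orphan nuclear receptor, gave −1.01 and −1.09 (adjusted p = 0.14 and 0.152). NR4A2 gave −0.47 (adjusted p = 0.621). Of the other genes read by name, RNF43, a ligase that removes Wnt receptors, gave 0.80 (adjusted p = 0.297), ELF3, an epithelial ETS factor, −1.68 (adjusted p = 0.0912) and ICAM1, an adhesion molecule of inflammation, −0.15 (adjusted p = 0.929). ADGRF3, an adhesion G protein-coupled receptor, had 5, 5 and 4 counts in KO #11 and 23, 30 and 26 in WT, and TMEM74 had 4, 4 and 16 and 0, 1 and 7, both below the count minimum.

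The p53 response did not separate the groups by the calling rule. CDKN1A, the cyclin kinase inhibitor p21, was at 2764, 2585 and 2508 CPM in KO #11 and 3100, 3121 and 4821 CPM in WT (adjusted p = 0.646), against 399.8 to 519 and 288 to 1221 CPM untreated. MDM2 was at 326, 302 and 258 CPM against 366, 353 and 54.5 CPM (adjusted p = 0.926). The pro-apoptotic BCL2 family members PMAIP1 and BBC3 gave −0.05 and −0.10 (adjusted p = 0.98 and 0.956), and TP53I3, an oxidoreductase induced by p53, 0.37 (adjusted p = 0.842). None of 17 p53 targets of arrest, 17 of apoptosis and metabolism, 23 BCL2 family and caspase genes, 31 homologous recombination and Fanconi genes, 19 nucleotide excision and translesion genes or 34 replication genes was called, with medians of 0.11, 0.20, −0.05, 0.20, 0.14 and −0.01. Without WT replicate 3 the medians of p53 targets of apoptosis and metabolism and of nucleotide excision and translesion genes were 0.33 and 0.07. TIGAR, a p53-induced fructose bisphosphatase, gave 0.79 (adjusted p = 0.243). The standard errors of 0.35 for CDKN1A, 0.48 for MDM2 and 0.40 for BBC3 on the log2 scale set the differences that could be seen, and a p above the threshold does not show equal levels.

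Other lists likewise held no call. They were 35 complex I subunits (median −0.05), 39 subunits of complexes II to V (−0.03), 13 mitochondrial mRNAs (−0.14), 60 ribosomal proteins (0.08), 25 G2 and mitosis genes (−0.10), 28 genes of cholesterol and fatty acid synthesis (0.08), 15 NRF2 targets (−0.30), 16 integrated stress response genes (−0.39), 15 interferon-stimulated genes (0.15), 14 NF-kB targets (−0.19), 16 Notch pathway genes (0.00), 14 heat shock chaperones (−0.36), 13 genes of platinum transport and metallothioneins (0.00), 11 class IIa HDACs and corepressor partners (−0.09) and 15 parts of SCF FBXW7 and cullin-RING ligases (−0.02). FTH1, the ferritin heavy chain, was at 241, 315 and 301 CPM against 535, 500.0 and 731 CPM (−1.04, adjusted p = 0.0799), and OASL, an interferon-induced protein, at 4.24, 5.83 and 11.2 CPM against 18.1, 25.5 and 36.3 CPM (−1.91, adjusted p = 0.0623). Neither overlapped between the groups, and neither passed the test. SLC31A1, the copper transporter that also carries platinum drugs, gave −0.35 (adjusted p = 0.295). Without WT replicate 3 the medians changed sign for homologous recombination (−0.04), BCL2 family and caspases (0.12), complex I (0.05), complexes II to V (0.12), the integrated stress response (0.01), NF-kB targets (0.22) and platinum transport (0.17), so no direction is given for these lists. The median also became −0.41 for mitochondrial mRNAs, 0.22 for ribosomal proteins, −0.21 for G2 and mitosis, 0.01 for cholesterol and fatty acid synthesis, −0.06 for NRF2 targets, 0.14 for the Notch pathway, −0.15 for class IIa HDACs and partners and −0.04 for SCF and cullin-RING parts. Of the 61 tested genes that the study placed under its first group of super-enhancers, a list that may have been chosen with these samples in view, ANXA10 was the 1 called (median −0.13), and of the 24 under its second group none was (median 0.06, and −0.12 without WT replicate 3). KRT80 of the second group, a keratin, was at 9.18, 10.0 and 10.4 CPM in KO #11 and 42.3, 77.3 and 63.6 CPM in WT (−2.63, SE 0.78, adjusted p = 0.107).

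Of the 42 named genes that were called, 8 were called in each of the 6 fits that left out 1 KO #11 or WT OXPT library: ANXA10, DPEP1, EHF, VASP and MYC, which were lower, and SPATC1L, RGS6 and CAPN15, which were higher. The other 34 lost the call in at least 1 of these fits, all with the direction kept. WT replicate 2 was the library whose absence ended most of them, 29, and KO #11 replicates 1 and 2 ended 25 and 24. Of the 8, EHF, RGS6 and CAPN15 were not called in the fit of the 6 libraries alone (adjusted p = 0.0517, 0.0569 and 0.118).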

How the data were processed

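PolyA RNA of HCT-116 cells was sequenced. Per the submitters' processing notes, reads were trimmed with Trimmomatic 0.39 and aligned with STAR 2.7.11a to hg38, and the deposited values are raw read counts per gene with unstranded and stranded columns. The study's methods describe another route. Of 62757 gene IDs, 62639 matched GENCODE 44, and 553 chromosome Y genes were left out. The unstranded column was used although the labels name a strand-marking kit, because the strand columns held nearly equal counts (ratios 1.00 to 1.02). Genes that overlap on opposite strands were therefore not kept apart, and 11.3% to 12.2% of reads were ambiguous in the 6 libraries.

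The 24 libraries with a group were fitted together, 1 coefficient per group, by the quasi-likelihood F-test of edgeR 4.0.16 (R 4.3.3) after TMM scaling, for genes with a mean count of 64 or more in at least 1 group. A call needed both a fold change over 1.5 and p under 0.05 after Benjamini-Hochberg adjustment. Standard errors are the log2 fold change over the root of F. The other 12 libraries, all titled WT with entries that disagree, were not used here.

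Named genes were the 12 largest called differences in each direction among protein-coding genes with a mean of 64 counts in both groups and no overlap, up to 4 called members of each list (or 2 with the smallest p), 20 genes the study turns on, the top of the interaction, and up to 5 in each direction called with and without OXPT. A few of them are not reported here. The comparison, genes and lists were chosen with earlier results of these data known. Same-numbered KO #11 OXPT and WT OXPT libraries did not deviate together (correlations 0.0869, −0.158 and −0.0688), so numbers were not taken to pair them. Replicate 3 had its group's highest unmapped share in WT OXPT (11.9%), untreated WT (13.8%) and KO esiCT OXPT (22.3%). The same held for KO esiHDAC4 OXPT (13.4%) and KO #11 OXPT (10.3%), but not for the untreated KO groups. Pairing of the other groups by number was not tested. Replicates differed beyond sampling noise. Alternatives were the reverse-strand column, DESeq2 1.42.0, RLE size factors, no count filter, a filter in every group, the compared groups alone, a replicate block, no fold threshold and leaving out each library.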

Additional observations from a re-analysis of the deposited data

Results flagged for a closer look

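CAPN15, a calpain protease, was picked out because its response to OXPT differed between KO #11 and WT by a test of that difference. The interaction was 2.17 on the log2 scale (SE 0.34, edgeR adjusted p = 0.0391). CAPN15 went from 47.5 ± 5.34 CPM (SD, n = 3) untreated to 7.86 ± 2.81 CPM with OXPT in WT, and from 28.4 ± 1.67 to 21.2 ± 2.79 CPM in KO #11. All 3 WT libraries with OXPT lay below all 3 KO #11 libraries, and the order was reversed in all 6 untreated libraries. The interaction missed the threshold with the reverse-strand column (adjusted p = 0.0689), with the replicate block (0.0574) and with the compared groups alone (0.708), and its adjusted p ran from 0.00765 to 0.226 when 1 of the 24 libraries was left out. Without WT OXPT replicate 3, which stood apart, the value was 2.33 and the test was passed. The cause of the difference was not tested.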

How the results depend on the processing

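The count of 140 genes in KO #11 OXPT against WT OXPT stayed within 1.5 times under the reverse-strand column (116), RLE size factors (144) and no fold threshold (140). It was 440 with DESeq2, 471 with no count filter, 61 with the filter in every group, 33 with the compared groups alone (27.3% of them higher, against 55.7%) and 471 with the replicate block. Leaving out 1 library gave 23 to 307, the lowest without WT OXPT replicate 2 and the highest without untreated WT replicate 3. For KO esiCT OXPT against WT OXPT (16) the counts were 9 with the reverse-strand column, 30 with DESeq2, 84 with no count filter, 3 with the filter in every group, 0 with the compared groups alone and 9 to 21 without 1 library. For KO #11 OXPT against KO esiCT OXPT (15) they were 126 with DESeq2, 367 with no count filter, 0 with the filter in every group, 0 with the compared groups alone, 132 with the replicate block and 1 to 27 without 1 library. For untreated KO #11 against WT (120) they were 433 with DESeq2, 466 with no count filter, 76 with the filter in every group, 1 with the compared groups alone, 400 with the replicate block and 28 to 369 without 1 library. For the interaction (1) they were 0 with the reverse-strand column, 15 with DESeq2, 16 with no count filter, 0 with the compared groups alone, 0 with the replicate block and 0 to 44 without 1 library. The causes of these differences were not tested, and counts of different fits need not hold the same genes.

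The replicate block, which joins libraries by their replicate number, raised the main count from 140 to 471. Between KO #11 OXPT and WT OXPT the pairing was not borne out, with correlations of 0.0869, −0.158 and −0.0688 between same-numbered libraries. Pairing across the other groups was not tested. WT OXPT replicate 3 lay nearer to KO esiHDAC4 OXPT replicate 3 (root mean square log2 difference 0.627) than to its own group (1.03 and 0.985). None of the called named genes changed direction under any alternative. Over the 107 named genes and all alternatives, 166 values lost the call, 53 gained one and 3173 did neither. The compared groups alone ended 24 of the 42 calls. Those reported above as lower were ACTG1, APOBEC3G, CYP24A1, EHF, ENSG00000289154, FOSL2, GPAT3, TENT5B and TPM4. Those reported as higher were BEX4, CAPN15, COL18A1, DES, GNAZ, MYO7A, PACS2, PRDM16, RGS6, SARDH, SEPTIN4, SERPINA5, SPRY4 and SYT1. Genes that were not called changed sign in 6 cases without WT OXPT replicate 3, in 4 without a KO #11 OXPT library and in 1 with the reverse-strand column.

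The comparison rests on 3 libraries in each group, with WT OXPT replicate 3 apart from the rest, and the esiRNA of the WT libraries is unsettled. Where a gene had few counts in one group, its fold change depended on the prior count.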
